A study of Mus musculus with 6 samples.

Results

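Oxidative phosphorylation (OXPHOS) is carried out by 5 complexes of the mitochondrial inner membrane, and their nuclear-encoded subunits were compared between 3 control and 3 Brd9 KO libraries. The members were chosen by gene symbol from the tables of the 6 libraries, which gave 77 of 24411 genes, and all 77 passed the filter on low counts that left 12953 genes for testing. Of the 77, 35 belong to complex I, 4 to complex II, 9 to complex III, 11 to complex IV and 15 to complex V, 1 is cytochrome c, and 2 (Atp5s and Atp5sl) carry an ATP synthase name without being subunits of the enzyme. Subunits encoded by mitochondrial DNA were not analysed here.

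Complexes I to IV pass electrons from NADH and succinate to oxygen, all but complex II pump protons as they do so, and complex V, the ATP synthase, uses the proton gradient to make ATP. Most subunits are encoded in the nucleus, made in the cytosol and assembled with a small core encoded by mitochondrial DNA. Hematopoietic stem cells are known for low mitochondrial respiration and a reliance on glycolysis, and respiration rises as progenitors proliferate and differentiate.

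RNA was measured by poly(A) RNA-seq of lineage-negative bone marrow cells taken from C57BL/6 mice (femora and tibiae), and the methods of the study add a sort for c-Kit. Control mice were Brd9fl/fl and Brd9 KO mice were Mx1-Cre Brd9fl/fl, and the Mx1 promoter drives this recombinase after pIpC, a double-stranded RNA mimic, in blood cells and in other cells that respond to interferon. Both groups were CD45.2(+), carried the floxed alleles and received 3 injections of pIpC at 20 mg/kg, which the series design places 4 weeks after birth, and cells were taken 8 weeks after pIpC. The study's text gives the mice an older age at harvest than these times add up to. The sample labels instead describe transplant recipients, so which animals were used is not settled by the sources. The control genotype carries no Cre, so an effect of Cre and that of Brd9 loss cannot be told apart. Brd9 itself, a bromodomain subunit of the non-canonical BAF chromatin remodelling complex, was at 45.9, 49.1 and 52.1 CPM (read counts scaled to the size of the library) in control, against 15.6, 13.5 and 21.03 CPM in Brd9 KO. It fell by 1.56 ± 0.17 (SE) on the log2 scale (edgeR adjusted p = 0.00345), and the exact two-sided permutation test gave p = 0.1, the smallest that 3 against 3 libraries can give. Control 1 and Brd9 KO 3 stood at the edges of their groups for the OXPHOS genes, so results that rest on them are also given without them. Libraries held 21151031 to 28500168 expected counts. Of the marker lists, progenitor genes summed to 1871 to 2033 CPM in control and 2482 to 2630 CPM in Brd9 KO, so the labelled cells carried their defining genes.

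Nearly every OXPHOS subunit gene was at a slightly lower level in Brd9 KO, but few passed the test. On log2(TPM + 1), where TPM is abundance scaled by transcript length, 69 of the 77 members were below 0, Ndufs1 and Atp5a1 were among those above it, and the members' median was -0.16 against 0.18 for all tested genes. The log2 fold change (Brd9 KO over control, from TMM-scaled counts) was below 0 for 76 of the 77 members, against 48.2% of all tested genes. It was also below 0 for 143 of 168 other genes within the middle range of the members' length and TPM. Its median was -0.37 over the members and 0.02 over all tested genes, and its range ran from -0.54 for Uqcr11 to 0.04 for Atp5sl. By edgeR's quasi-likelihood test with Benjamini-Hochberg adjustment over all tested genes, 10 members were called lower at an adjusted p under 0.1, against 6.25% of all tested genes. None was called higher, against 9.19% of all tested genes, and none had an unadjusted p under 0.05 in that direction. DESeq2 and limma called none higher either. Before adjustment, 33 members were lower at a p under 0.05, against 12.6% of all tested genes and 58 of those 168 genes. The study names mitochondrial oxidative phosphorylation as a gene set that is lower in these samples, so the list is not independent evidence of its direction.

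**Figure D1:**
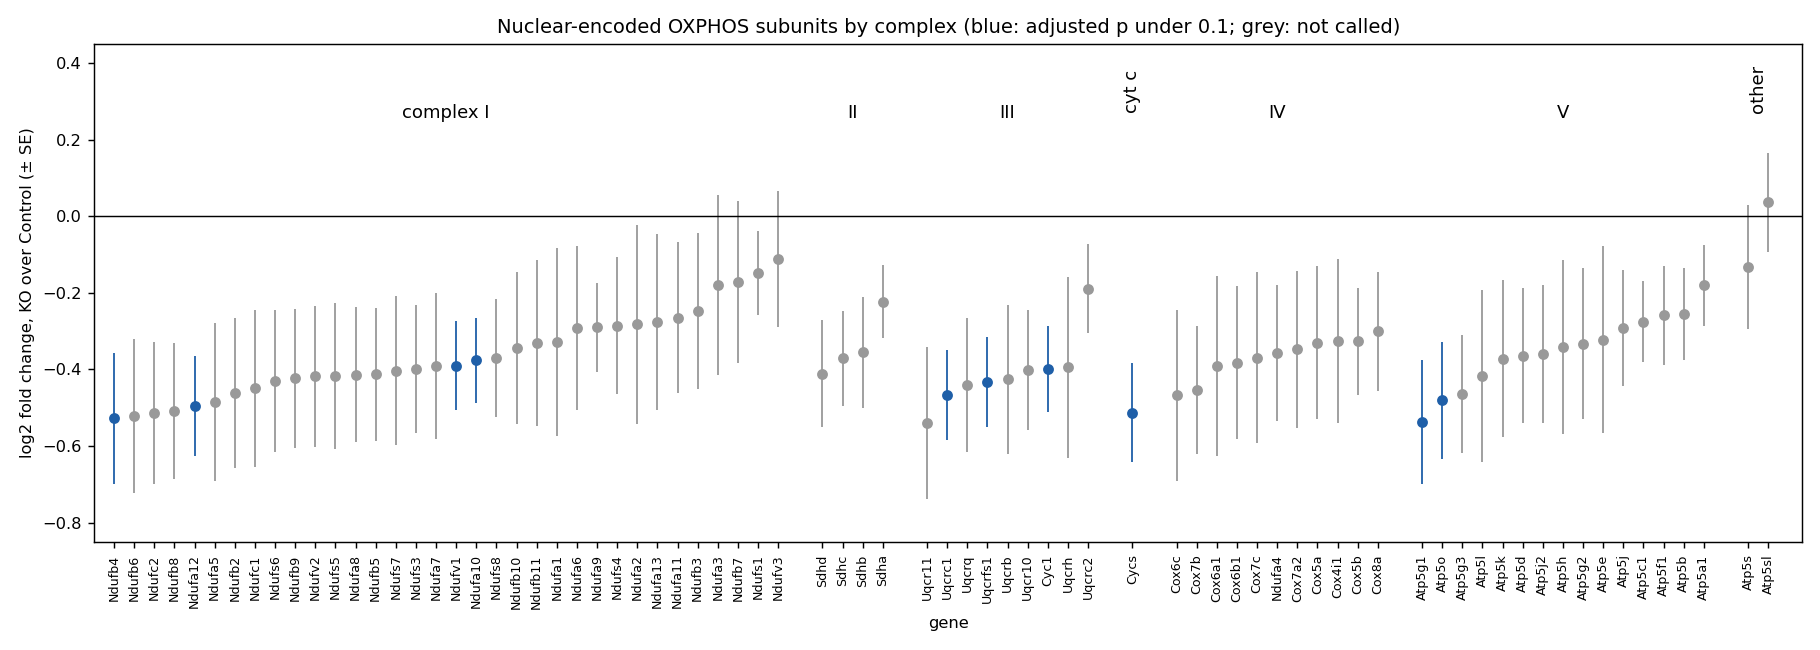
Log2 fold change of 76 of the 77 members, Brd9 KO over control, with its standard error (vertical bar), grouped by complex on the x axis and ordered by value within it. Blue points mark the 10 members called lower, and all points but that of Atp5sl lie below 0.

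The 10 members called lower were Ndufa12, Ndufv1, Ndufa10 and Ndufb4 of complex I, Uqcrc1, Uqcrfs1 and Cyc1 of complex III, cytochrome c (Cycs), and Atp5g1 and Atp5o of complex V. In the mm10 genome they lie on chromosomes 10 (Ndufa12), 19 (Ndufv1), 1 (Ndufa10), 16 (Ndufb4 and Atp5o), 9 (Uqcrc1), 13 (Uqcrfs1), 15 (Cyc1), 6 (Cycs) and 11 (Atp5g1). With all 6 libraries, no member of complex II or complex IV was called by edgeR, while DESeq2 called Sdhc and Sdhd of complex II and Cox7b of complex IV lower. The adjusted p of the called members lay between 0.0513 (Cycs) and 0.0987 (Ndufb4), and those just outside the threshold were Sdhc at 0.105, Atp5g3 at 0.105 and Sdhd at 0.111. None of the 10 changed by more than 1.5-fold and none passed an adjusted p of 0.05, against 2.69% and 2.65% of all tested genes that were lower by these rules.

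The regions before the start sites of 4 members are shown. Cycs, Uqcrc1 and Uqcrfs1 were called lower with small p, and Cox6a1, a complex IV subunit, was not called but holds motifs of both NRF1 and ETS factors, which are known to drive many nuclear OXPHOS genes. Each line gives 250 bases upstream of the start, 5′ to 3′ on the gene's strand, from RefSeq on GRCm38.p6 (mm10), with motif matches in capitals.
Cycs (chr6:50566570-50566819, minus strand): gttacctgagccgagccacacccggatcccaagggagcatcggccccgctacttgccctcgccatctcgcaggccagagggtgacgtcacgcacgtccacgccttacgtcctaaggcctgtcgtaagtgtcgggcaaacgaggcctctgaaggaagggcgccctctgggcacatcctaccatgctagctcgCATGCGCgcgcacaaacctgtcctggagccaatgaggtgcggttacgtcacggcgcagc
Uqcrc1 (chr9:108936398-108936647, plus strand): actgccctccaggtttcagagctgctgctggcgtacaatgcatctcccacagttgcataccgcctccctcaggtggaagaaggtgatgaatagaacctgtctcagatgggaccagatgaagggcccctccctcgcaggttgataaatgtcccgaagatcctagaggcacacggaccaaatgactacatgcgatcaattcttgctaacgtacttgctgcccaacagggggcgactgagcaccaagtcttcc
Uqcrfs1 (chr13:30545317-30545566, minus strand): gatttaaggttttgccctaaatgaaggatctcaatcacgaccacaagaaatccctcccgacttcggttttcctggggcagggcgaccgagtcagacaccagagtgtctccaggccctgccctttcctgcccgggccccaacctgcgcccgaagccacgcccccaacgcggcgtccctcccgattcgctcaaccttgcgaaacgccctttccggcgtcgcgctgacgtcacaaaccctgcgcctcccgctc
Cox6a1 (chr5:115348959-115349208, minus strand): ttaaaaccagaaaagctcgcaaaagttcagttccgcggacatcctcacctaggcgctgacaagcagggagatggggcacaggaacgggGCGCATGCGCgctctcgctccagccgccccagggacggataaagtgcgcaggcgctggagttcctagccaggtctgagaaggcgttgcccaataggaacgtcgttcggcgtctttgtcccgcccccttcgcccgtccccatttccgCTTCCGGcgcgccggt

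The letters searched were GCGCATG (a core of the NRF1 motif), CCGGAAG (ETS factors such as GABP), AAGATGG (YY1) and CACGTG (the E-box), on both strands, in the window from 250 bases before to 50 bases after each start. Of the 77 members, 77 matched a RefSeq gene and 65 had a promoter in the table, and matches of different motifs overlapped in 0 of the members' windows. The NRF1 letters were present for 14 of the 65 members (21.5%), against 4.41% of the 27025 genes with a promoter. Those 27025 include genes not tested here, and the NRF1 and YY1 letters were chosen after longer forms had been searched. The ETS letters were present for 16 members (24.6%, against 9.93% of genes), the YY1 letters for 12 (18.5%, against 7.28%) and the E-box for 7 (10.8%, against 8.09%). Cycs held 1 match to the NRF1 letters, which begins 59 bases before its start, Uqcrc1 held 2 overlapping ones in the 50 bases after its start, and Uqcrfs1 held none of the 4 motifs. In Cox6a1 the NRF1 letters begin 162 and 159 bases before the start, on opposite strands and overlapping, and the ETS letters 16 bases before it. A match is a description of these windows, and binding was not measured here.

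Cytochrome c (Cycs), the soluble carrier that takes electrons from complex III to complex IV and also starts the apoptosome when released from mitochondria, had the smallest p of all members. It was at 338, 328 and 265 CPM in control, against 230, 196 and 227 CPM in Brd9 KO. All 3 Brd9 KO libraries were below all 3 control libraries, and the log2 fold change was -0.51 ± 0.13 (SE; edgeR adjusted p = 0.0513). Cycs was also the longest member, with an effective length (the number of positions at which a fragment could start) of 2857 bases.

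Complex III, which passes electrons from ubiquinol to cytochrome c, had 3 of its 9 members called lower, against 6.25% of all tested genes. Its median log2 fold change was -0.43. Uqcrc1, a core protein of the complex, was at 413, 352 and 326 CPM in control, against 268, 248 and 272 CPM in Brd9 KO, a log2 fold change of -0.47 ± 0.12 (edgeR adjusted p = 0.0520). Its Brd9 KO libraries lay close together and below every control library. Both nuclear-encoded redox subunits of the complex were called. Uqcrfs1, the Rieske iron-sulfur protein, was at 212, 184 and 194 CPM in control, against 146, 129 and 162 CPM in Brd9 KO, a log2 fold change of -0.43 ± 0.12 (edgeR adjusted p = 0.0641). Cyc1, cytochrome c1, was at 216, 221 and 182 CPM in control, against 167, 148 and 156 CPM in Brd9 KO, a log2 fold change of -0.40 ± 0.11 (edgeR adjusted p = 0.0718). The groups did not overlap for either gene. The other 6 members were not called. Uqcr11, a small accessory subunit, had the lowest log2 fold change of all members (-0.54 ± 0.20) but its values of 179, 132 and 125 CPM in control and 96.9, 79.2 and 124 CPM in Brd9 KO nearly met (edgeR adjusted p = 0.130). Uqcrh, the hinge protein and the most abundant member of the complex per length at a mean of 862 TPM, ranged from 222 to 322 CPM in control, and Brd9 KO 3, at 274 CPM, lay inside that range. Uqcrc2, the other core protein, had the highest log2 fold change of the complex, -0.19 ± 0.12.

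In complex I, which oxidises NADH, 4 of 35 members were called lower, against 6.25% of all tested genes. The median log2 fold change of the complex was -0.39. Its matrix arm, which holds the flavin and the iron-sulfur clusters, and its proton-pumping membrane arm were alike in these counts, with 2 of 16 and 2 of 19 members called and medians of -0.38 and -0.41. Ndufa12, an accessory subunit of the matrix arm, was at 95.7, 81.5 and 79.3 CPM in control, against 57.9, 54.2 and 69.9 CPM in Brd9 KO, a log2 fold change of -0.50 ± 0.13 (edgeR adjusted p = 0.0589). Ndufv1, which binds NADH and the flavin, was at 198, 159 and 164 CPM in control, against 137, 127 and 133 CPM in Brd9 KO, a log2 fold change of -0.39 ± 0.12 (edgeR adjusted p = 0.0808). Neither gene's groups overlapped. Ndufa10, an accessory subunit, was at 130, 124 and 113 CPM in control, against 98.3, 100.4 and 83.9 CPM in Brd9 KO, a log2 fold change of -0.38 ± 0.11 (edgeR adjusted p = 0.0817). Ndufb4, an accessory subunit of the membrane arm, was at 89.7, 65.5 and 64.9 CPM in control, against 49.6, 43.0 and 60.04 CPM in Brd9 KO, a log2 fold change of -0.53 ± 0.17 (edgeR adjusted p = 0.0987). For Ndufa10 Brd9 KO 3 was the lowest library, whereas for Ndufa12 and Ndufb4 it was the highest of its group.

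The remaining 31 members of complex I were not called. Of the core subunits, Ndufs1, which carries iron-sulfur clusters, was at 134, 158 and 138 CPM in control, against 134, 135 and 119 CPM in Brd9 KO, and its groups overlapped (log2 fold change -0.15 ± 0.11, edgeR adjusted p = 0.408). Ndufa3, an accessory subunit of the membrane arm, was the most abundant member of complex I per length at a mean of 676 TPM, with a log2 fold change of -0.18 ± 0.24. Ndufv3, an accessory subunit next to the flavin, had the highest log2 fold change of the complex, -0.11 ± 0.18.

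Complex II, succinate dehydrogenase, is both an enzyme of the TCA cycle and an entry of electrons into the chain, and all of its 4 subunits are nuclear-encoded. None was called by edgeR with all 6 libraries. All 4 were lower at an unadjusted p under 0.05, against 12.6% of all tested genes and 58 of 168 other genes of like length and TPM. Sdhd, a membrane anchor and the most abundant of the 4 per length (282 TPM), was at 310, 250.0 and 249 CPM in control, against 199, 177 and 232 CPM in Brd9 KO. Its groups did not overlap, and the log2 fold change was -0.41 ± 0.14 (edgeR adjusted p = 0.111). Sdhb, the iron-sulfur subunit, had the next level per length and a log2 fold change of -0.36 ± 0.15 (edgeR adjusted p = 0.162), with values of 179, 135 and 144 CPM in control and 116, 106 and 137 CPM in Brd9 KO that overlapped. Sdha, the flavoprotein that oxidises succinate, was at 339, 345 and 328 CPM in control, against 306, 286 and 275 CPM in Brd9 KO. The groups of Sdha stood apart by a small step (log2 fold change -0.22 ± 0.10, edgeR adjusted p = 0.178).

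Complex IV, cytochrome c oxidase, reduces oxygen, and its 11 members included Ndufa4, whose protein belongs to this complex despite its name. With all 6 libraries none was called by edgeR, and 2 were lower at an unadjusted p under 0.05, against 12.6% of all tested genes. Without Brd9 KO 3, edgeR called 10 of the 11 lower, against 15.3% of tested genes. The median log2 fold change with all 6 libraries was -0.36, with a range from -0.47 (Cox6c) to -0.30 (Cox8a). Its members had the highest median level per length, 943 TPM, against 228 TPM in complex I, 198 in complex II, 467 in complex III and 710 in complex V. Cox4i1, a regulatory subunit at a mean of 1126 TPM, was at 638, 447 and 493 CPM in control, against 375, 332 and 552 CPM in Brd9 KO, a log2 fold change of -0.33 ± 0.21 (edgeR adjusted p = 0.355). Cox7c, a small subunit at a mean of 1028 TPM whose counts were not whole in any library and so include reads shared with other sequences, was at 273, 198 and 200 CPM in control, against 157, 132 and 231 CPM in Brd9 KO, a log2 fold change of -0.37 ± 0.22 (edgeR adjusted p = 0.317). In both genes Brd9 KO 1 and 2 were below all control libraries and Brd9 KO 3 was above 2 of them. Cox5a, a subunit on the matrix side, had a log2 fold change of -0.33 ± 0.20, and Cox6a1, a subunit of the membrane part, had one of -0.39 ± 0.23.

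In complex V, 2 of 15 members were called lower, against 6.25% of all tested genes, and the median log2 fold change was -0.34. Of the 5 members of F1, the catalytic head, 1 was lower at an unadjusted p under 0.05, against 12.6% of all tested genes. None of the 5 was called by edgeR with all 6 libraries (median -0.28), and DESeq2 called 1, Atp5c1. By edgeR, 2 of the 10 members of Fo and the stalks were (median -0.37). Atp5g1, one of 3 genes for subunit c of the proton-driven rotor ring, was at 279, 232 and 209 CPM in control, against 162, 138 and 196 CPM in Brd9 KO, a log2 fold change of -0.54 ± 0.16 (edgeR adjusted p = 0.0846). Atp5o, the stalk protein OSCP, was at 318, 238 and 243 CPM in control, against 193, 164 and 215 CPM in Brd9 KO, a log2 fold change of -0.48 ± 0.15 (edgeR adjusted p = 0.0959). The groups did not overlap for either gene. Atp5o shares exon positions with opposite-strand genes (D430001F17Rik and Gm15976) and with Donson on its own strand, and the sources differ on whether reads were counted by strand, so its value is uncertain. The same holds for 24 of the 77 members, among which Atp5o is the one that was called.

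The other 2 subunit c genes encode the same mature protein as Atp5g1 and were not called. Atp5g3 was at 395, 327 and 303 CPM in control, against 250.3, 206 and 286 CPM in Brd9 KO, a log2 fold change of -0.46 ± 0.15 (edgeR adjusted p = 0.105). Atp5g2 was at 433, 299 and 327 CPM in control, against 269, 224 and 348 CPM in Brd9 KO, a log2 fold change of -0.33 ± 0.20 (edgeR adjusted p = 0.308). The groups overlapped for Atp5g2 and did not for Atp5g3. The catalytic subunit genes Atp5a1 and Atp5b had small differences, with log2 fold changes of -0.18 ± 0.11 and -0.26 ± 0.12, and the rotor gene Atp5c1 had one of -0.28 ± 0.11. Atp5b was at 1472, 1511 and 1302 CPM in control, against 1285, 1216 and 1090.0 CPM in Brd9 KO, so that no library of one group lay within the other. Atp5k, a membrane subunit of the enzyme's dimer, was the most abundant member of complex V per length (1082 TPM) and the shortest of all members, with an effective length of 95.9 bases. Atp5s and Atp5sl, which are no subunits, had log2 fold changes of -0.13 ± 0.16 and 0.04 ± 0.13.

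**Figure D2:**
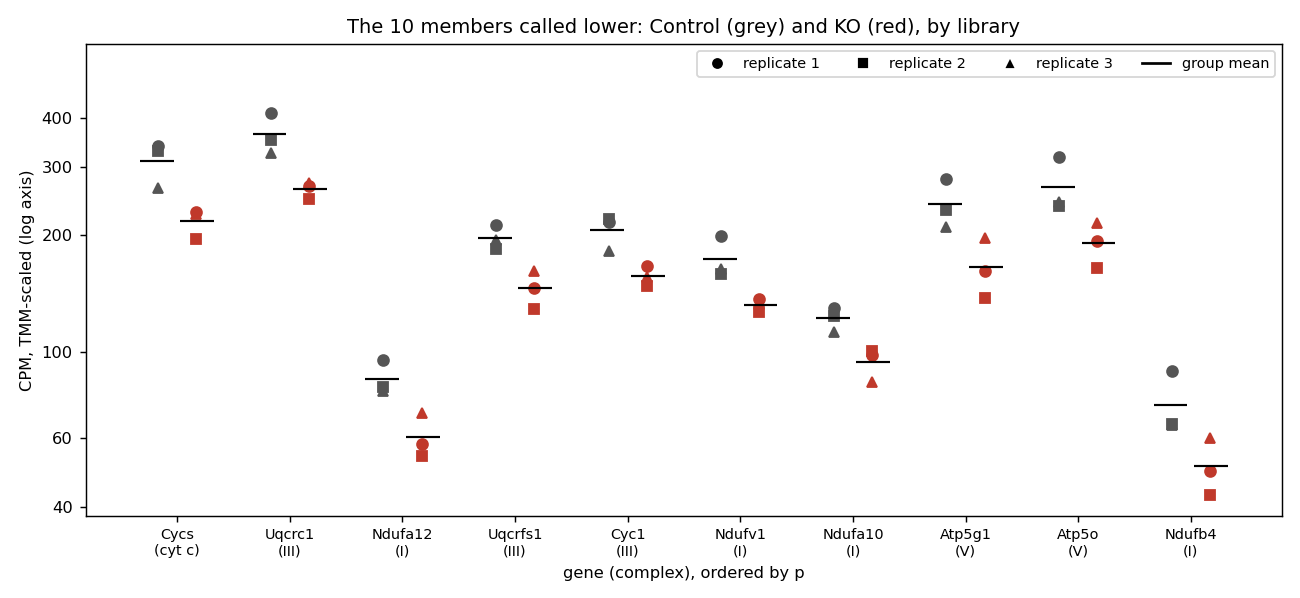
CPM (TMM-scaled, log axis) of the 10 members called lower, ordered by p, in the 3 control (grey) and 3 Brd9 KO (red) libraries, with the symbol giving the replicate number and a line at each group's mean. In all 10 the Brd9 KO libraries lie below the control libraries.

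The members moved together from library to library, and the libraries of one group were not alike. Measured as log2 CPM minus the mean of the 6 libraries, the members' median was 0.45, 0.04 and 0.07 in control, against -0.22, -0.47 and 0.09 in Brd9 KO. Brd9 KO 3 was thus above Control 2 and Control 3, and Control 1 stood apart at the top. Control 1 was the highest library for 68 of the 77 members and Brd9 KO 2 the lowest for 71. Brd9 KO 1 and 2 were both below all control libraries for 73 members, against 28.6% of all tested genes, whereas Brd9 KO 3 was so for 27 members, against 31.6%. The groups did not overlap, with Brd9 KO lower, for 25 members, against 16.3% of all tested genes. They did not overlap in this way for 49 of the 168 other genes of like length and TPM.

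The number of members called followed these libraries. Without Brd9 KO 3, 68 of the 77 were called lower, against 15.3% of tested genes, and the median log2 fold change was -0.56. They comprised 33 members of complex I, 3 of complex II, 8 of complex III, 10 of complex IV and 13 of complex V, and Cycs. Without Control 1 and Brd9 KO 3, 67 were called lower, against 15.7% of tested genes, with a median of -0.38. These libraries were chosen after seeing the data, for their OXPHOS values, so this count is not independent of the choice. Without Control 1, Control 2, Brd9 KO 1 or Brd9 KO 2, in contrast, no member was called lower by edgeR, and 9, 28, 12 and 9 had an unadjusted p under 0.05. Among all genes tested in those fits, 2.47%, 1.86%, 1.36% and 1.7% were called lower, at an adjusted p under 0.1. Their share at an unadjusted p under 0.05 is not given here, so the 9, 28, 12 and 9 have no background. Without Control 3, Cycs, Uqcrc1 and Cyc1 were called, against 2.64% of tested genes. DESeq2 on all 6 libraries called 19 members lower, against 7.38% of tested genes, among them all 10 that edgeR called. Other ways to scale or fit the same 6 libraries gave 10 members with RLE size factors (6.48% of tested genes), 8 with upper-quartile scaling (5.85%), 6 with the library total alone (3.78%), 11 without a filter on low counts (4.39%) and 11 with the replicate number as a block (6.11%). An effective length offset gave 10 (6.32%), limma-voom 9 (6.04%), and limma on TPM, a scale already divided by length, 3 with a pseudocount of 1 (1.73%) and 2 with one of 0.1 (1.66%).

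**Figure D3:**
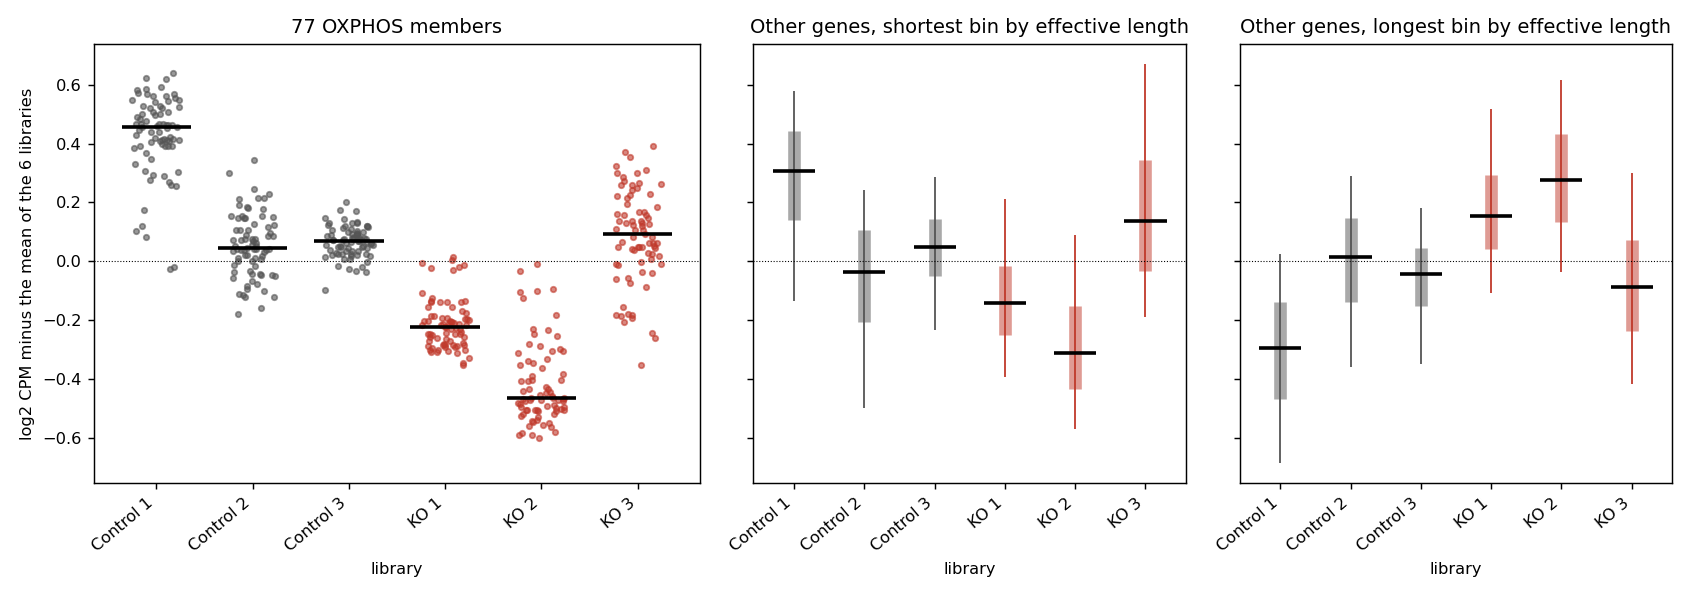
Log2 CPM of each library minus the mean of the 6 libraries. The left panel shows the 77 members as points with their median (black line), and the middle and right panels show other tested genes of the shortest and the longest of 5 equal bins by effective length as medians, quartile boxes and 10th to 90th percentile lines. In the left and middle panels Control 1 is highest and Brd9 KO 2 lowest, and in the right panel that order is turned.

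Most members are short transcripts, and the median log2 fold change of short genes as a whole was below 0. The members' effective length had a median of 479 bases, against 2553 bases over all tested genes, and of 5 equal bins of all tested genes by effective length, the shortest (up to 1341 bases) held 65 of the 77. From the shortest bin to the longest, the median log2 fold change was -0.22, -0.08, 0.01, 0.08 and 0.22. The number called lower was 267, 255, 141, 93 and 53 in the same order, and the number called higher was 85, 145, 223, 300 and 437. In the shortest bin, which holds most members, 72.5% of genes had a log2 fold change below 0 and 10.3% were called lower. Its genes that are no members had a median of 894 bases and 39 TPM, against 400 bases and 327 TPM for its members. There, 7 of the 65 members were called lower, and their median of -0.38 compares with -0.21 for the 2528 genes of that bin that are no members. Nearer to the members in length and TPM were 168 other genes within the middle range of both (median 661 bases and 312 TPM). Their median log2 fold change was -0.31, and 26 of the 168 were called lower, as were 10 of the 77 members. The cause of this relation with length was not tested.

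**Figure D4:**
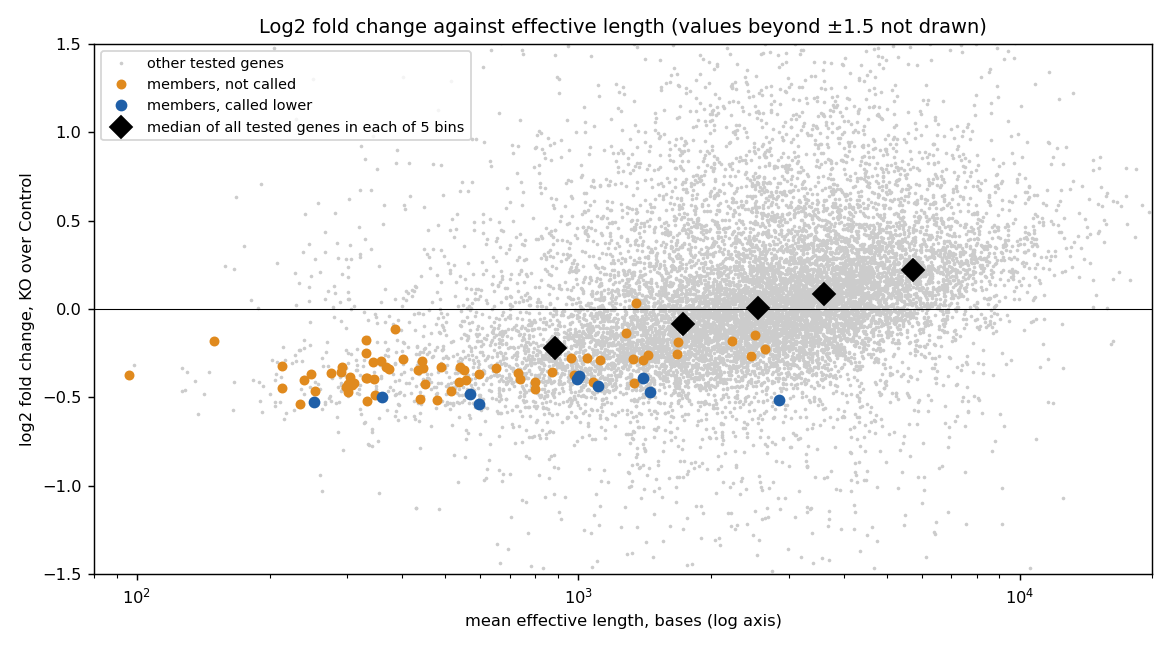
Log2 fold change (Brd9 KO over control) of all tested genes against mean effective length in bases (log axis), with members called lower in blue, other members in orange and the median of all tested genes in each of 5 equal bins of length as a black diamond. The diamonds run from -0.22 to 0.22, and the members lie at the short end.

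The non-member genes of the shortest bin followed the same order of libraries as the members, with median deviations of 0.31, -0.04 and 0.05 in control, against -0.14, -0.31 and 0.14 in Brd9 KO. Those of the longest bin ran the other way, from -0.30 in Control 1 to 0.28 in Brd9 KO 2. The mean effective length at which the non-member counts of a library fell (a geometric mean) was 1700, 1978 and 1887 bases in control, against 2081, 2191 and 1822 bases in Brd9 KO, so the library with the most OXPHOS RNA was the one with the shortest mean. Ranked from the shortest mean to the longest, the libraries were Control 1, Brd9 KO 3, Control 3, Control 2, Brd9 KO 1 and Brd9 KO 2, which was also their order from the highest to the lowest OXPHOS median.

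The 12 members outside the shortest bin differed in this respect. Their median deviation was 0.23, 0.15 and 0.05 in control, against -0.08, -0.22 and -0.18 in Brd9 KO, so that all 3 Brd9 KO libraries were below all 3 control libraries. Of the 12, 3 (Cycs, Uqcrc1 and Ndufv1) were called lower, against 7.65% of all tested genes in the 2 bins that hold them, and their median log2 fold change was -0.26 with a median SE of 0.12, while the 65 short members had a median SE of 0.19. Over all 77 members, Brd9 KO 3 was the lowest library for Atp5a1, Atp5b, Ndufs1, Sdha and Uqcrc2, and for Ndufa10 of the shortest bin. It was the highest for Atp5sl, and for Ndufb7 and Ndufv3 of the shortest bin.

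When the trend with effective length was removed from each library before the test, 10 members were called lower, against 10.1% of all tested genes. The median of the 77 was -0.12, against 0.002 over all tested genes, and 67 were below 0, against 76 with the trend kept. Before adjustment, 17 members were lower and 1 was higher at a p under 0.05. The shares of all tested genes below 0 or at that p are not given for this fit, so these counts have no background. Of the 10 called in this fit, 5 were called in both fits, namely Cycs, Uqcrc1, Uqcrfs1, Ndufv1 and Atp5g1. The other 5 were Ndufa5, Ndufb8, Ndufc2, Sdha and Sdhd. Ndufa12 (-0.18), Ndufb4 (-0.17), Ndufa10 (-0.17), Cyc1 (-0.20) and Atp5o (-0.21) were no longer called, each with its log2 fold change in this fit in parentheses. Cycs had a log2 fold change of -0.53 in this fit, Uqcrc1 was at -0.35, and Cox4i1 was at -0.07. With the trend removed and Brd9 KO 3 left out, a fit chosen after seeing the data, 14 members were called lower, against 12.7% of tested genes.

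**Figure D5:**
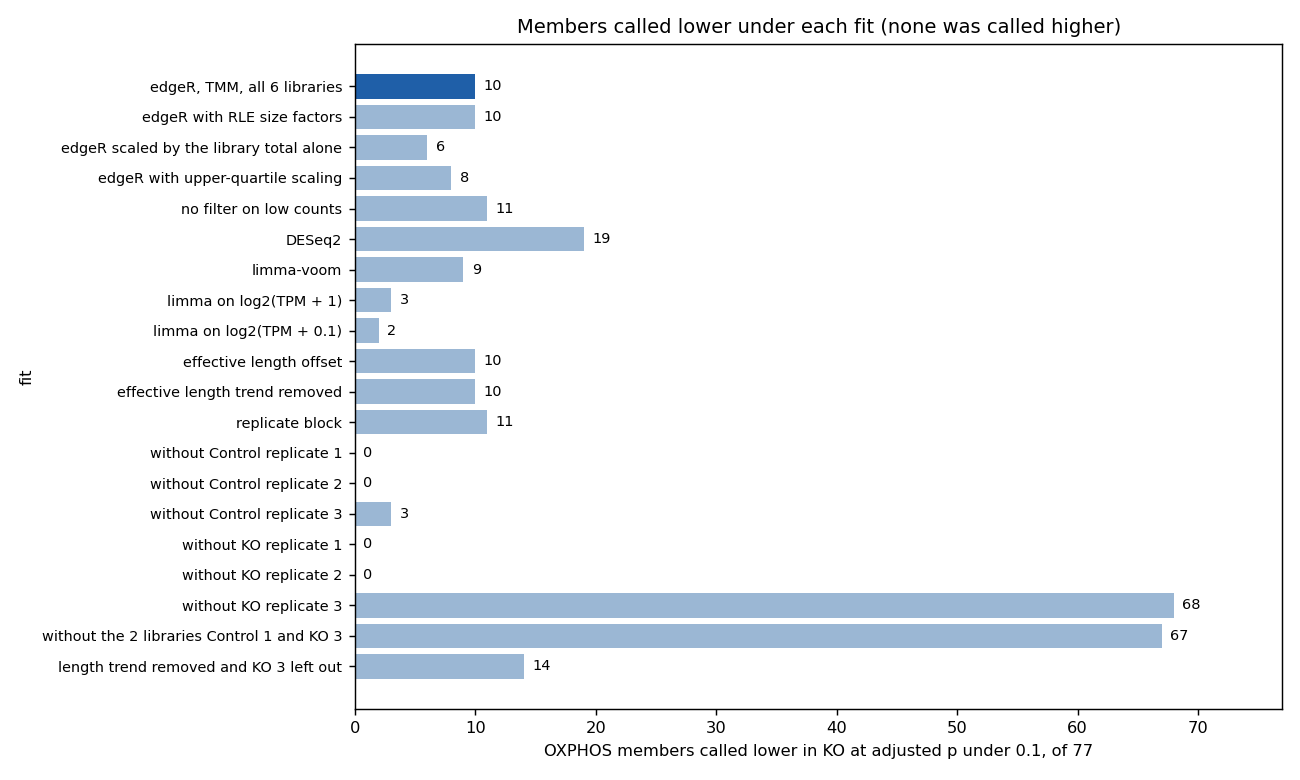
Number of the 77 members called lower in Brd9 KO at an adjusted p under 0.1 (x axis, from 0) under each fit (y axis), with the fit of all 6 libraries by edgeR in dark blue. The number was 10 in that fit and ran from 0 to 68 when 1 library was left out.

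No tested gene of the lists that build, feed or regulate the chain was called higher by edgeR, and none had an unadjusted p under 0.05 in that direction. Of the assembly factors, 5 of 47 tested were called lower, against 6.25% of all tested genes, with a median log2 fold change of -0.29. Tmem70, needed to assemble the ATP synthase, was at 60.6, 57.3 and 53.5 CPM in control, against 44.2, 38.6 and 41.8 CPM in Brd9 KO, a log2 fold change of -0.46 ± 0.10 (edgeR adjusted p = 0.0351). The complex I assembly factors Ndufaf4 (adjusted p = 0.0418) and Acad9 (adjusted p = 0.0467) were called lower by edgeR as well, at -0.52 ± 0.12 and -0.43 ± 0.10. Groups of these 3 genes did not overlap, and all 3 have a smaller adjusted p than any of the 77 members.

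Of 11 tested isoforms and partner proteins outside the symbol rule, 3 were called lower, against 6.25% of all tested genes. Cox6a2, the heart and muscle form of a complex IV subunit, was at 2.50, 1.14 and 2.17 CPM in control, against 0.41, 0.25 and 0.53 CPM in Brd9 KO, a log2 fold change of -2.30 ± 0.42 (edgeR adjusted p = 0.0192). This was a change between low levels, with no overlap of the groups. Ndufab1, the acyl carrier protein that is part of complex I, was at 115.8, 95.2 and 87.8 CPM in control, against 68.4, 65.0 and 77.9 CPM in Brd9 KO, a log2 fold change of -0.50 ± 0.13 (edgeR adjusted p = 0.0617). Cox6b2, the testis form of another complex IV subunit, had a log2 fold change of -0.77 ± 0.25 (edgeR adjusted p = 0.0995), and its groups overlapped.

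Of 13 TCA cycle genes, 2 were called lower, Suclg1 (succinyl-CoA ligase, log2 fold change -0.43 ± 0.13, edgeR adjusted p = 0.0872) and Fh1 (fumarase, log2 fold change -0.33 ± 0.10, edgeR adjusted p = 0.0939), and the median was -0.28. Of 6 carrier and channel genes, Slc25a5, an exchanger of ADP and ATP, was called lower, at 981, 908 and 787 CPM in control and 695, 636 and 645 CPM in Brd9 KO, a log2 fold change of -0.44 ± 0.12 (edgeR adjusted p = 0.0652). Of 16 tested regulators and mitochondrial DNA maintenance genes, which include Nrf1, Gabpa, Yy1 and Tfam, Peo1, the mitochondrial DNA helicase, was called lower (log2 fold change -0.33 ± 0.10, edgeR adjusted p = 0.0858), and the median was -0.04. These genes are longer, with a median effective length of 3216 bases. Over all tested genes, 6.25% were called lower.

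Other groups of housekeeping genes had medians below 0 too, described here with no test between groups. Mitochondrial ribosomal proteins had a median log2 fold change of -0.38 with 21 of 74 called lower. Cytosolic ribosomal proteins had one of -0.44 with 5 of 81 called lower, and proteasome subunits one of -0.28 with 3 of 38 called lower. The share called lower was 6.25% over all tested genes and 10.3% in the shortest bin by effective length. No gene of the 3 groups was called higher by edgeR, and none had an unadjusted p under 0.05 in that direction. The median deviation of mitochondrial ribosomal proteins in Brd9 KO 3 was -0.02, below that of the OXPHOS members.

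Markers of blood cell types also moved with the groups and with Brd9 KO 3. Over all tested genes, 6.25% were called lower and 9.19% higher in Brd9 KO. The 10 granulocyte markers summed to 23110, 20270 and 18570 CPM in control and to 11040, 11340 and 19160 CPM in Brd9 KO, and 3 (Mpo, Elane and Camp) were called lower. The sum of Brd9 KO 3 lay inside the control range, but of the single markers only Prtn3 did (2975 CPM, against 2817 to 3896 CPM in control). Mpo, an enzyme of early granules and the largest part of the sum, was at 5292 CPM in Brd9 KO 3, against 9507 to 10870 CPM in control. S100a9, a protein of late neutrophils, was at 3293 CPM there, against 557 to 1041 CPM in control and 462 and 560 CPM in Brd9 KO 1 and 2. S100a8, Ngp, Ltf and Mmp8 were likewise highest in Brd9 KO 3, and 4 of the 10 markers had a log2 fold change above 0. Of the 8 progenitor markers, 3 were called higher, namely Gata2, Runx1 and Cebpa, with log2 fold changes of 1.27, 0.55 and 0.38. The 15 erythroid markers summed to 3384, 3629 and 4040 CPM in control and to 2274, 2314 and 3168 CPM in Brd9 KO, and 6 were called lower. The 7 stroma markers summed to 85.7 to 123 CPM in control and 127 to 174 CPM in Brd9 KO, with 4 called higher and 1 lower, and the 6 macrophage markers to 41.8 to 59.2 CPM and 80.3 to 114.5 CPM, with 5 called higher. The 5 matched markers of B cells and the 5 of T and NK cells summed to 66.3 to 133 CPM and 135 to 315 CPM over the 6 libraries, and no list was at 0 as a whole. Their part in the OXPHOS values was not tested, and in bulk RNA fewer cells of a type and less RNA per cell cannot be told apart.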

How the data were processed

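Gene expression was measured by RNA-seq in 6 libraries, 3 control and 3 Brd9 KO, grouped by the labels. The authors aligned reads to mm10, a build that the submitters' processing notes name too, and quantified them by STAR and RSEM within nf-core/rnaseq, as the methods of the study state. The deposited expected counts are RSEM's estimated counts per gene, the deposited TPM values are RSEM's length-scaled abundances, and the deposited effective length is in bases. The labels call the libraries unstranded while the methods name a stranded kit. The study describes biological triplicates, which the labels do not tie to separate animals. Libraries of a group differed by more than sampling noise (chi-square statistics of 10.6 to 80.2 per degree of freedom).

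Expected counts were rounded, filtered with filterByExpr, scaled by TMM and compared with edgeR 4.0.16 (quasi-likelihood, R 4.3.3), with Benjamini-Hochberg adjustment across all 12953 tested genes. An adjusted p under 0.1, the study's threshold, made a call. SE is that of the log2 fold change, derived from edgeR's test as the size of the fold change divided by the square root of its F statistic. Spread within a group is shown by the value of each library. Alternatives used DESeq2 1.42.0, limma 3.58.1 with voom or on log2(TPM + 1) and log2(TPM + 0.1), other scalings, an effective length offset, a loess trend over log effective length removed per library (span 0.3), a replicate block and libraries left out. The study's independent hypothesis weighting was not run. The procedure was also run on simulated counts, with no trend over length or with one shared by all Brd9 KO libraries. Trends that differ between libraries of a group were not simulated, so that run says nothing about them. Members, complexes, lists and tests were chosen with earlier results of these data known. Full values are given for up to 3 called members per complex (or the 2 most abundant), a list of core subunits and the Atp5g paralogs. The most abundant member and those with the lowest and highest log2 fold change of each complex are named as well. Listed symbols not matched were Ndufaf8, Fmc1, Atp5if1, Twnk, Ighm and Trbc1, and Ppargc1a, Pet117, Cox7b2, Cox8b, Cox8c, Cyct and Ndufa4l2 did not pass the filter. Gene positions and promoters are RefSeq's on GRCm38.p6. The letters searched for NRF1 and YY1 are short cores, chosen after a search with longer forms of both had been seen. The value of 1 member is not reported here on its own.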

Additional observations from a re-analysis of the deposited data

How the results depend on the processing

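The members' median log2 fold change was below 0 under every alternative (from -0.56 without Brd9 KO 3 to -0.11 with the length trend removed and Brd9 KO 3 left out), and no member was called higher under any. The number called lower, 10, was 6 when libraries were scaled by their total alone, 19 with DESeq2, 3 on log2(TPM + 1), 2 on log2(TPM + 0.1), 67 without Control 1 and Brd9 KO 3 (chosen after seeing the data), 0 at an adjusted p under 0.05, 0 at an adjusted p under 0.1 and over 1.5-fold, and from 0 to 68 when 1 library was left out. It was 10 with RLE size factors, 8 with upper-quartile scaling, 11 without a filter, 9 with limma-voom, 10 with an effective length offset, 10 with the length trend removed and 14 when Brd9 KO 3 was left out too (also chosen after seeing the data). The share of all tested genes called lower moved as well, from 6.25% to 3.78% by library total, 7.38% with DESeq2, and 1.73% and 1.66% on the TPM scales. It ran from 1.36% to 15.3% when 1 library was left out, and was 15.7% without Control 1 and Brd9 KO 3. The cause of these shifts was not tested, and the fits compared here differ in their number of libraries. The log2 fold change of Ndufs1 turned to 0.0602 and 0.0609, and that of Atp5a1 to 0.0349 and 0.035, on log2(TPM + 1) and log2(TPM + 0.1), scales on which the median of all tested genes was 0.18 and 0.22 and that of the members -0.16 on both. With the library total alone the median of all tested genes was 0.10. Of all calls, 59.5% were higher, against 74.1% by library total, 83.3% and 84.0% on the TPM scales, 67.8%, 66.4%, 62.3%, 72.1%, 72.2% and 51.6% without Control 1, 2, 3 and Brd9 KO 1, 2, 3. The replicate numbers were not shown to pair the libraries (correlations of same-numbered deviations -0.09, 0.47 and 0.02), and with the replicate block 11 members were called lower.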
